A study of Mus musculus with 36 samples.

Results

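The 10 genes described here encode enzymes that place methyl groups on lysines of histone H3 or take them off, and that are known to slow or to help the conversion of fibroblasts into induced pluripotent stem cells (iPSCs). They were chosen by name and make up 10 of the 21442 genes counted. The writers were Suv39h1 and Suv39h2 (H3K9 trimethylation), Ehmt1 and Ehmt2 (the H3K9 mono- and dimethylating enzymes GLP and G9a) and Dot1l (the H3K79 methyltransferase). The erasers were Kdm3a and Kdm3b (H3K9 mono- and dimethyl), Kdm4b and Kdm4c (H3K9 trimethyl and H3K36 trimethyl) and Kdm2b (H3K36 dimethyl), which also brings a variant Polycomb repressive complex 1, PRC1.1, to unmethylated CpG islands.

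H3K9 methylation compacts chromatin and keeps lineage-foreign genes silent, and large H3K9 trimethyl domains in somatic cells hinder access of the reprogramming factors. H3K79 methylation by DOT1L marks genes transcribed in the fibroblast. The demethylases of the KDM2, KDM3 and KDM4 families need iron and 2-oxoglutarate and are stimulated by vitamin C, an additive of the reprogramming medium used here.

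Messenger RNA was sequenced in 36 mouse libraries, with 3 libraries for every pairing of 6 stages with 2 genotypes, 12 groups in all. Cells were taken as mouse embryonic fibroblasts (MEFs), sorted cells at days 3, 5 and 7 of reprogramming (D3, D5 and D7), iPSC clones and embryonic stem cells (ESCs). The MEFs carried Cas9 and a doxycycline-inducible cassette of Oct4, Sox2, Klf4 and c-Myc (OSKM), came from chimeric E12.5 embryos and were labelled as strain 129. They received a lentivirus with a non-targeting control sgRNA (WT) or an sgRNA against Zfp266 (KO), a gene for a KRAB zinc finger protein. MEF, D3, D5 and D7 KO samples were therefore edited populations, in which some cells keep an intact gene. Reprogramming cells were grown among unmodified 129 MEFs in doxycycline and vitamin C, and cells with the mOrange reporter of the cassette were sorted. WT and KO iPSCs were each 3 clones grown with puromycin and without doxycycline. KO ESCs were derived as clones from 1 parental line. The paper does not say how many clones the 3 KO ESC samples hold or what the WT ESC samples were. If the WT samples were the parental line, their spread holds no clonal variation. For MEF and reprogramming samples nothing in the labels says that the 3 replicates came from separate embryos. In the fit of all 36 libraries the p-values rest on a spread between samples estimated for each gene over all 12 groups. The spread between iPSC clones and between ESC samples therefore also enters the p-values of MEF and reprogramming samples.

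The libraries held 19224103 to 39610939 counts. Zfp266 itself had 2828 to 3096 normalised counts in WT MEFs and 3072 to 3293 in KO MEFs. A small edit at an sgRNA site need not lower a gene-level count, so this count does not check the knockout. The stage labels were checked on marker genes. The summed normalised counts of 8 fibroblast markers lay between 376984 and 542667 in MEF libraries and between 444 and 819 in iPSC and ESC libraries. Those of 8 pluripotency markers ranged from 57.6 to 79.5 in MEFs, where 3 of the 8 had no count in the WT libraries and 3 none in the KO libraries, and from 87299 to 106221 in iPSCs and ESCs. MEF KO replicate 3 stood apart from the other 2 KO MEF libraries, with the lowest sum of 6 epithelial markers (419.5) and the highest fibroblast sum. In sorted populations, fewer cells of a type and less RNA per cell cannot be told apart.

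The start regions of 5 of the genes are shown, picked for the expression results given below. No expression value was related to these sequences. Suv39h1, Kdm3a and Kdm4c had the widest ranges of WT group means, Suv39h2 is the paralog that rose where Suv39h1 fell, and Kdm2b spread most between WT iPSC clones. Each sequence runs 5′ to 3′ on the gene's strand from 250 bases before to 50 after an annotated start (RefSeq, GRCm38.p6). Capitals mark matches on either strand to the octamer ATGCAAAT, the palindromic Oct element ATGCATATGCAT, the E-box CACGTG, the GC box GGGCGG, the CCAAT box or the cAMP response element TGACGTCA, a motif list drawn up with these sequences in view.
Suv39h1, chrX:8074711-8075010, minus strand: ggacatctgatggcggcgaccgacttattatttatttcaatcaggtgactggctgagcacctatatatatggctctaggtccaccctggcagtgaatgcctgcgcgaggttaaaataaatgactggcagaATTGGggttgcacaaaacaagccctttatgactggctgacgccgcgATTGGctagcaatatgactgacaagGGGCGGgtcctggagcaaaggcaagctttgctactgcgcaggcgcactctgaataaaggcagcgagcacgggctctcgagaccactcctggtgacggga
Suv39h2, chr2:3474937-3475236, minus strand: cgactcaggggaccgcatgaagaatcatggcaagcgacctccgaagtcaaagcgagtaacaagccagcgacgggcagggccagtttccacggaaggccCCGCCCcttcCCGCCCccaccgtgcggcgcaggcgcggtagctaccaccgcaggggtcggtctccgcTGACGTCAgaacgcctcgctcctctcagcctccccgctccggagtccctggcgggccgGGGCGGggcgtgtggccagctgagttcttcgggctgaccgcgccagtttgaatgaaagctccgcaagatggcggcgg
Kdm3a, chr6:71632868-71633167, minus strand: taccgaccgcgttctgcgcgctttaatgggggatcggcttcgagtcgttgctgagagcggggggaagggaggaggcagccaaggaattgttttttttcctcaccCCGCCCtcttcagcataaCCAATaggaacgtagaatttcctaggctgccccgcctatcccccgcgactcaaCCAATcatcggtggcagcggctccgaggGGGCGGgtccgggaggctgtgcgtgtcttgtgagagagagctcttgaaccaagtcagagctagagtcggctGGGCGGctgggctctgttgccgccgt
Kdm4c, chr4:74251629-74251928, plus strand: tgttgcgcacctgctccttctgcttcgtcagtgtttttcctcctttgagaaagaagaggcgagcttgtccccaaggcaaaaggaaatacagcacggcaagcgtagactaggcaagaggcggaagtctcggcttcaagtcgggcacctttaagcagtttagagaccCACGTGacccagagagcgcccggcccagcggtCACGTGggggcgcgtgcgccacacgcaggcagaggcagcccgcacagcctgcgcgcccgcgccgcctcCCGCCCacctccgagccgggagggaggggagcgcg
Kdm2b, chr5:122900318-122900617, minus strand: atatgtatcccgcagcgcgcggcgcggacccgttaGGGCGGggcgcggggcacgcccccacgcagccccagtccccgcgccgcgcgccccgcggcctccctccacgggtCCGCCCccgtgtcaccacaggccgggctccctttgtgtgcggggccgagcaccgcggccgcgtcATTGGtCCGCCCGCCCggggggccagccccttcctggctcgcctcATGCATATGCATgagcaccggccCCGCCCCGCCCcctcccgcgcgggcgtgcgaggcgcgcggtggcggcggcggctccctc

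The table held 16 windows for 8 of the 10 genes, 13 of them with a GC box, which is in 35.7% of all 32851 windows. Their CpG content differed. The Suv39h1 window shown held 15 CpG dinucleotides, those of Kdm3a, Kdm4c and Suv39h2 held 24, 28 and 33, and the median of all windows was 7. Windows of other starts held 37 for Suv39h1, 40 and 0 for Kdm3a and 0 for Kdm4c. The order of these genes by CpG content therefore depends on the start chosen. Suv39h1 carried 2 CCAAT boxes, 74 and 120 bases before its start, and Kdm3a carried 2 as well, 75 and 128 bases before the start (CCAAT in 37.4% of all windows). Kdm4c carried 2 E-boxes, 53 and 85 bases before the start, and both Ehmt2 windows held this motif too (7.15% of all windows). Suv39h2 was the one gene of the 8 with a cAMP response element (1.79% of all windows), and no window of the 8 genes held the octamer (1.74%). The Kdm2b window shown belongs to an internal start 88732 bases downstream of the outermost one. It had 47 CpG dinucleotides and the palindromic Oct element 32 bases before the start, a 12-base run found in 3 of the 32851 windows, of which 2 were overlapping windows of neighbouring Kdm2b starts. Counts are per gene and do not say which start was used, and a match is a run of letters and not a shown binding site.

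Between WT MEFs and WT ESCs all 10 genes changed (DESeq2, FDR < 0.05 over all genes), 8 upwards and 2 downwards, and 6 of them by more than 1 on the log2 scale as well, the rule for a differentially expressed gene (DEG). In the same comparison 40% of all tested genes were called higher and 39.4% lower, so a call alone sets no gene apart from the table. The median log2FC was 0.98 for the 10 genes and 0.05 for all genes. Library values below are normalised counts (raw counts divided by the library's size factor) and are compared within a gene. A log2FC is given with its standard error (SE) from the fit of all 36 libraries.

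The paired writers of H3K9 trimethylation went in opposite directions along the course. Suv39h1 (chrX:8061171-8074760), on the X chromosome, had 3256, 3241 and 3337 normalised counts in the WT MEF libraries. It had 1730, 1548 and 1575 at D7, 359, 567 and 447 in iPSCs, and 491, 466 and 431 in ESCs. Its level thus ended lowest in the pluripotent cells, with no overlap between MEFs, D7 and iPSCs. The log2FC of WT ESCs against WT MEFs was −2.83 ± 0.15 (FDR = 1.52e-82), a 7.09-fold lower level. Suv39h2 (chr2:3455815-3475031) had 355, 383 and 338 normalised counts in WT MEFs and 512, 556 and 583 at D3. It stayed between 468 and 551 at D5 and between 499 and 533 at D7, then reached 1061, 981 and 1104 in iPSCs and 982, 1023 and 1060.5 in ESCs. Suv39h2 therefore rose in 2 steps, before D3 and after D7, with a log2FC of 1.52 ± 0.08 from MEFs to ESCs (FDR = 1.81e-70).

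G9a and GLP, which act as a heterodimer, changed less. Ehmt2, the gene of G9a (chr17:34898469-34914052), had 7341, 7275 and 7445 normalised counts in WT MEFs, 3958, 3994 and 4093 at D3 and 5187, 5220.2 and 5877 in ESCs. Its lowest stage was D3, and ESCs stayed below MEFs (log2FC −0.44 ± 0.07, FDR = 5.07e-09). Ehmt1, the gene of GLP (chr2:24789928-24919614), had 2473, 2646 and 2521 normalised counts in WT MEFs and 3575, 3636 and 3897 in ESCs. That was a rise of 0.54 ± 0.06 on the log2 scale (FDR = 2.55e-20), and the step from D7 to iPSCs alone was 0.70 ± 0.06 (FDR = 1.76e-34).

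Dot1l (chr10:80755206-80795461), the H3K79 methyltransferase, was the writer with the largest rise at D3. Its WT libraries had 1671, 1739 and 1539.9 normalised counts in MEFs and 3289, 3278 and 3415 at D3. D5 and D7 libraries lay lower, between 2385 and 2717, and ESC libraries had 3442, 3537 and 4002. The D3 step was 1.01 ± 0.11 (log2FC, FDR = 1.78e-18) and the D5 step fell by 0.38 ± 0.11 on the log2 scale (FDR = 0.00492).

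Kdm3a (chr6:71588972-71632990), an H3K9 mono- and dimethyl eraser, had the widest range of the 10 genes in WT cells. It had 1416, 1584 and 1552 normalised counts in MEFs, 583, 656 and 729.8 at D3, 954, 989.8 and 1074 at D5 and 1807, 2021 and 1756 at D7. WT iPSCs had 8892, 9255 and 10075 and WT ESCs 8784, 8805 and 8674. A dip at D3 (log2FC −1.21 ± 0.11 against MEFs, FDR = 9.40e-27) was thus followed by a rise at every step to iPSCs, and ESCs lay 2.53 ± 0.11 above MEFs on the log2 scale (FDR = 1.07e-121). Kdm3b (chr18:34777047-34838660), its paralog, also had its lowest mean at D3, within a narrower range. It had 2715, 3014 and 2886 normalised counts in WT MEFs, 1804, 1744 and 1704 at D3, 3010.4, 3265 and 3175 at D7, and 4476, 5160.5 and 5368 in ESCs. Its rise from MEFs to ESCs was 0.80 ± 0.08 (log2FC, FDR = 7.04e-23).

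Kdm4c (chr4:74242497-74405860), an H3K9 trimethyl eraser, rose at every step from MEFs to iPSCs. It had 652, 697 and 661 normalised counts in WT MEFs, 1061, 901 and 960.4 at D3, 1230.0, 1286 and 1306 at D5, 1627, 1741 and 1503 at D7 and 4745, 5373 and 5155 in iPSCs. The WT ESC libraries, at 4649, 4952 and 4724, overlapped the iPSCs and lay 2.83 ± 0.09 above MEFs on the log2 scale (FDR = 1.50e-212), a 7.13-fold higher level. Kdm4b (chr17:56326062-56402870) instead dipped at D3. It had 1144, 1174 and 1134.5 normalised counts in WT MEFs, 523.5, 519 and 472 at D3 and 1484, 1427 and 1616 in ESCs, with a log2FC of 0.39 ± 0.13 from MEFs to ESCs (FDR = 0.00327).

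Kdm2b (chr5:122870665-122989823), the H3K36 dimethyl eraser of PRC1.1, had the widest relative spread of the 10 genes between WT iPSC clones. It had 1511, 1543 and 1671 normalised counts in WT MEFs and 1226, 1230.4 and 1400.3 at D7. The 3 WT iPSC clones had 5534, 8950 and 5279 normalised counts and the WT ESC samples 4240.5, 4386 and 4670.3. The D7 to iPSC step, 2.36 ± 0.18 on the log2 scale (FDR = 1.66e-38), was 5.12-fold. iPSC WT replicate 2 stood above the other 2 clones, and the SD over the 3 was 2049.5 normalised counts.

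**Figure D1:**
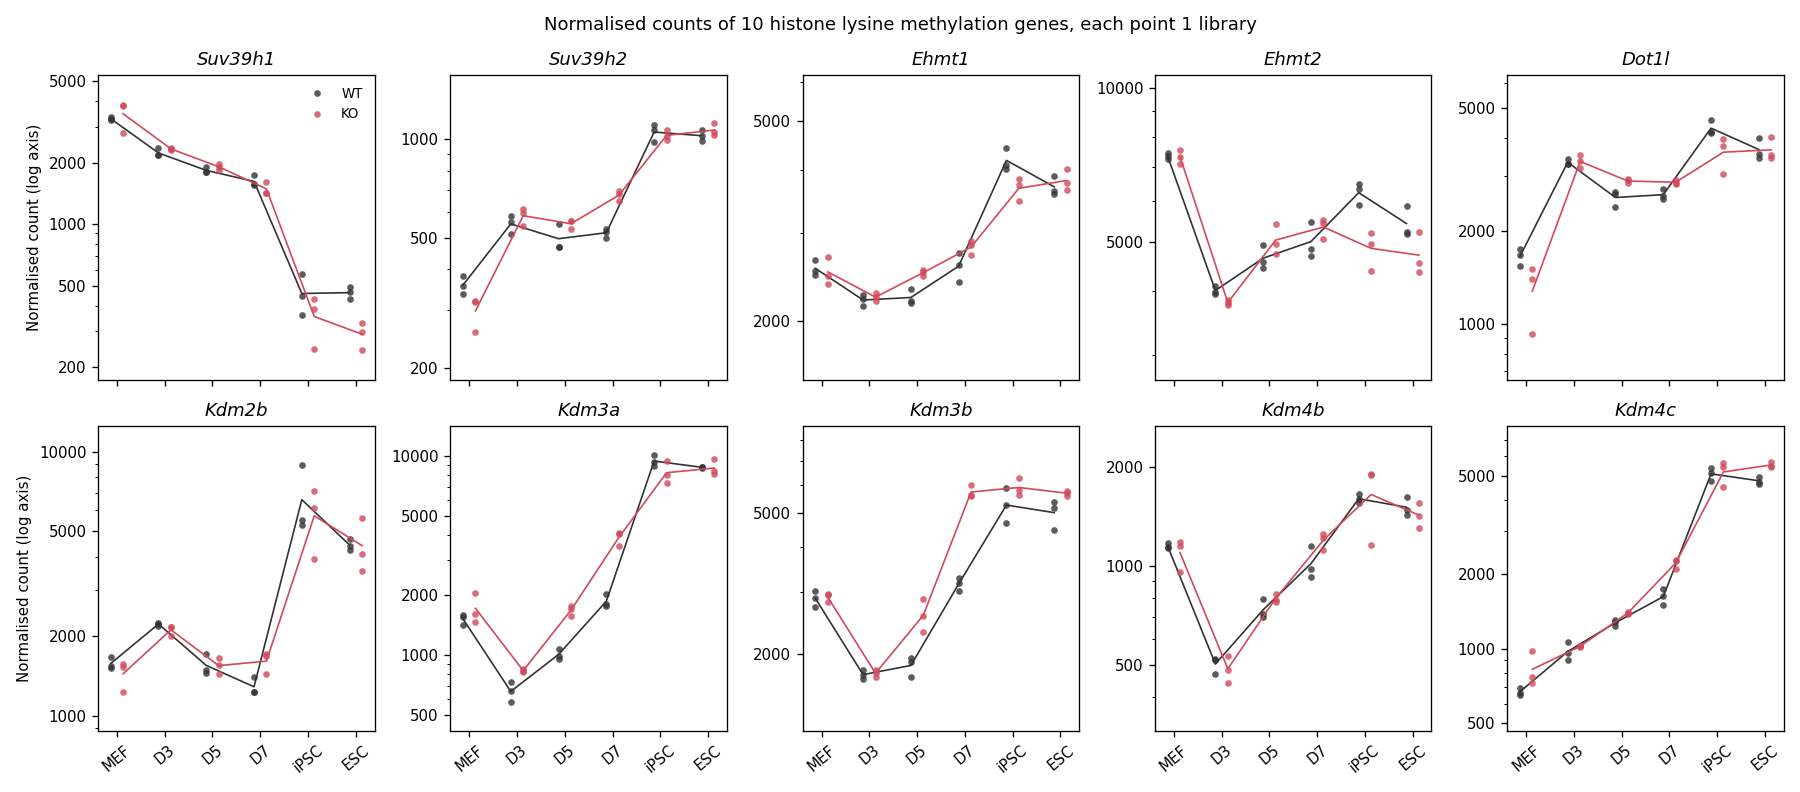
Normalised counts (log axis) of the 10 genes at the 6 stages, with each point 1 library, lines through group means, WT in dark grey and KO in red. Suv39h1 falls to 431 to 491 in WT ESCs from 3241 to 3337 in WT MEFs, and Kdm4c climbs at each step to iPSCs. Kdm3a, Kdm3b, Kdm4b, Ehmt1 and Ehmt2 have their lowest WT mean at D3.

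Counted by step in WT cells, 4 of the 10 genes rose and 6 fell from MEFs to D3, where 33.8% of all tested genes were called higher and 37.1% lower. Dot1l, Suv39h2, Kdm4c and Kdm2b rose, and Kdm3a, Kdm4b, Ehmt2, Kdm3b, Suv39h1 and Ehmt1 fell. Ehmt1 (log2FC −0.21) moved to −0.12 and lost its call with size factors from trimmed mean of M values (TMM) scaling (FDR = 0.0512), with edgeR (FDR = 0.0652) and with only the 6 libraries compared (FDR = 0.0845). From D3 to D5, Kdm3a (0.62), Kdm4b (0.55), Kdm4c (0.39) and Ehmt2 (0.21) rose on the log2 scale and Dot1l (−0.38) and Kdm2b (−0.52) fell, beside 12.4% of tested genes higher and 12.7% lower. Some of these calls rested on single libraries. Ehmt2 lost its call without D3 WT replicate 1, D3 WT replicate 2 or D5 WT replicate 1 (FDR from 0.0620 to 0.138), and Kdm2b without D3 WT replicate 3, D5 WT replicate 2 or D5 WT replicate 3 (FDR from 0.0535 to 0.0825). From D5 to D7, Kdm3a (0.89), Kdm3b (0.76), Kdm4b (0.46), Kdm4c (0.35) and Ehmt1 (0.21) rose and none fell, beside 13.5% and 10.7% of tested genes. The 4 H3K9 erasers were all among these 5, and Ehmt1 lost its call without D7 WT replicate 1 (FDR = 0.0538). From D7 to iPSCs, 9 genes rose and Suv39h1 fell (−1.82 ± 0.15), beside 35.8% and 37.7%. Between WT iPSCs and WT ESCs, Kdm2b alone was called, lower in ESCs (−0.57 ± 0.18, FDR = 0.0462), beside 1.09% of tested genes higher and 2.11% lower. Without iPSC WT replicate 2 the Kdm2b difference was −0.29 (FDR = 0.310), and edgeR did not call it (FDR = 0.137). The call was also lost without iPSC WT replicate 1 and without ESC WT replicate 1 or 2. The cells differ between D7 and iPSCs in more than time, since iPSCs were cloned and grown without doxycycline. The same holds from MEFs to D3, where D3 cells were grown among unmodified MEFs in reprogramming medium and sorted for mOrange. Library preparation dates are not in the labels, and batch and stage cannot be told apart.

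Expressed per kb of exon, which allows a comparison between genes that depends on the length used, the order changed from MEFs to ESCs. In WT MEFs Ehmt2 (1339.7 ± 15.6 normalised counts per kb, SD, n = 3) stood above Suv39h1 (622 ± 9.76), Ehmt1 (314 ± 11.0) and Kdm4b (235 ± 4.18). Kdm3b (204 ± 10.7), Dot1l (189.5 ± 11.6) and Kdm3a (184 ± 10.9) followed, with SD ranges that overlapped from one to the next. Kdm2b (145 ± 7.80), Kdm4c (115 ± 4.04) and Suv39h2 (81.3 ± 5.23) were lowest. WT ESCs were led by Kdm3a (1064 ± 8.57), Ehmt2 (989 ± 70.8) and Kdm4c (820.0 ± 27.1). Ehmt1 (456 ± 21.1), Dot1l (420.5 ± 34.4), Kdm2b (408 ± 20.1) and Kdm3b (355 ± 33.1) formed a middle group. Kdm4b (308 ± 19.8), Suv39h2 (232 ± 8.90) and Suv39h1 (87.8 ± 5.74) were lowest. SD ranges overlapped between Kdm3a and Ehmt2 and between each neighbouring pair from Ehmt1 down to Kdm4b. Per kb of exon, Suv39h1 thus went from next to the highest level to the lowest, and Kdm4c from next to the lowest to the third. Some of these ranks would change with coding length, which is 1288 of 5270 exon bases for Suv39h1 and 3896 of 5489 for Ehmt2.

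The log2 ratio of 2 paralogs in 1 library does not depend on library scaling and shows which of the pair dominated. For Suv39h1 over Suv39h2 it was 2.94 ± 0.11 in WT MEFs (SD, n = 3), 1.76 ± 0.11 at D3, 1.63 ± 0.09 at D5, 1.39 ± 0.10 at D7, −1.48 ± 0.39 in iPSCs and −1.40 ± 0.15 in ESCs. Suv39h1 was thus 7.66-fold above Suv39h2 per kb in WT MEFs, and Suv39h2 was 2.64-fold above Suv39h1 in WT ESCs. KO cells gave 3.27 ± 0.08 in MEFs, 0.89 ± 0.07 at D7, −1.83 ± 0.48 in iPSCs and −2.14 ± 0.23 in ESCs. Kdm4b over Kdm4c reversed earlier, from 1.03 ± 0.03 in WT MEFs to −0.70 ± 0.13 at D3, and reached −1.41 ± 0.12 in ESCs. Kdm3a over Kdm3b was −0.14 ± 0.02 in WT MEFs, 0.02 ± 0.08 at D7 and 1.59 ± 0.14 in ESCs, with −0.64 ± 0.20 at D3. Per kb of coding sequence the D7 value was −0.33, so that the order of this pair at D7 depends on the length used. Ehmt1 over Ehmt2 stayed below 0 throughout and rose from −2.09 ± 0.06 in WT MEFs to −1.11 ± 0.04 in ESCs. These ratios are a description, with no test.

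**Figure D2:**
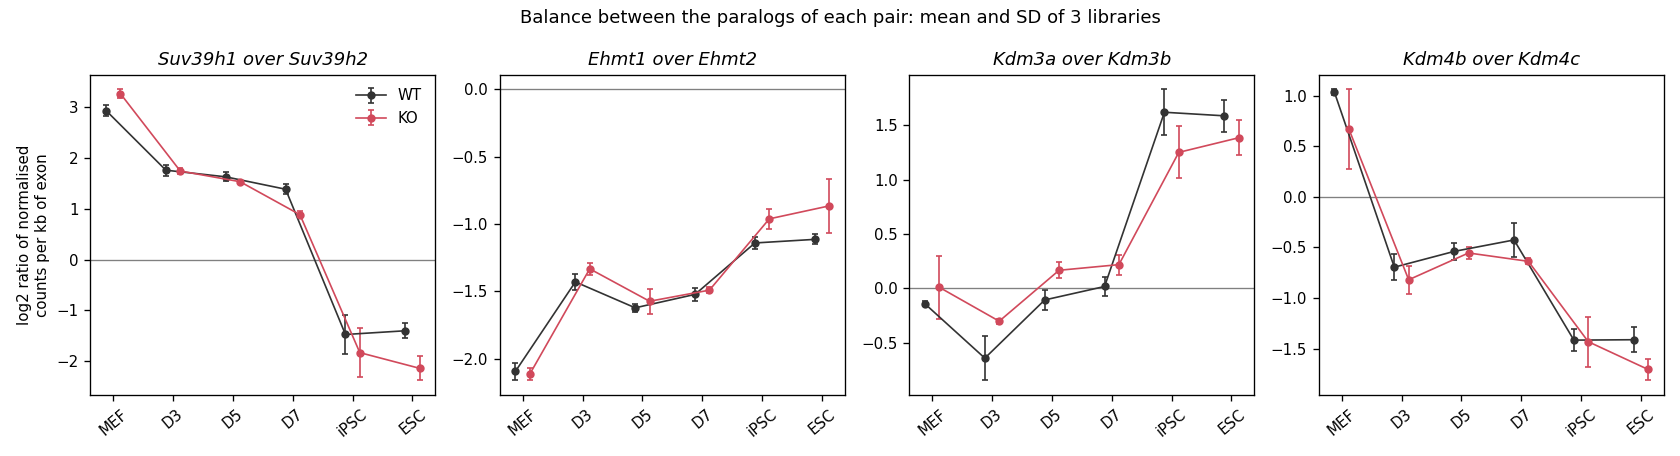
The log2 ratio of normalised counts per kb of exon for 4 pairs of paralogs at the 6 stages, as mean and SD of 3 libraries, with WT in dark grey, KO in red and a line at 0 for equal levels. Suv39h1 over Suv39h2 crosses 0 between D7 and iPSCs, Kdm4b over Kdm4c crosses 0 between MEFs and D3, and Ehmt1 stays below Ehmt2 in every group.

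The course was then read in KO cells. From KO MEFs to KO ESCs all 10 genes were called, 8 higher and 2 lower, beside 79.2% of tested genes called in either direction. The log2FC was −3.58 ± 0.15 for Suv39h1 and 2.74 ± 0.09 for Kdm4c. From MEFs to D3 all 10 were called (71.4% of tested genes), 4 higher and 6 lower, with Ehmt1 lost without MEF KO replicate 1 (FDR = 0.0750), with edgeR (FDR = 0.145) and with TMM scaling (FDR = 0.127). Without MEF KO replicate 3 all 10 stayed called in both comparisons with KO MEFs. From D3 to D5, 7 were called (29.3%), with Kdm3a (1.01) leading 6 that rose, and Kdm2b (−0.45) falling. Kdm2b lost its call without any 1 of the 6 libraries (FDR from 0.0556 to 0.147), and Ehmt1 without D3 KO replicate 2 or 3 or D5 KO replicate 1 or 2 (FDR from 0.0510 to 0.0872). From D5 to D7, 7 were called (41.5%), with Kdm3a (1.21), Kdm3b (1.15) and Kdm4c (0.67) highest among 6 that rose, and Suv39h1 (−0.36) falling. Suv39h1 lost its call without D5 KO replicate 1 or 3 or D7 KO replicate 1 or 2 (FDR from 0.0706 to 0.101), and Ehmt1 without D7 KO replicate 1 (FDR = 0.0530). From D7 to iPSCs, 8 were called (68.9%), 7 higher and Suv39h1 lower (−2.07), and Dot1l lost its call without iPSC KO replicate 2 (FDR = 0.0628). Between KO iPSCs and KO ESCs DESeq2 and edgeR called none of the 10, with 1 at an unadjusted p under 0.05, beside 6.45% of tested genes. Without iPSC KO replicate 3, Suv39h1 (−0.49, FDR = 0.0105) and Kdm2b (−0.59, FDR = 0.0110) were called lower in KO ESCs, as was Kdm2b without ESC KO replicate 1 (FDR = 0.0375) and Kdm4b without iPSC KO replicate 2 (−0.41, FDR = 0.00157). WT and KO courses share no libraries, and their difference is tested only in the terms given further on.

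KO against WT at each stage asked whether loss of ZFP266 moved these enzymes. In MEFs none of the 10 was called by DESeq2 (FDR of at least 0.297) or edgeR, beside 0.0428% of all tested genes, and 3 had an unadjusted p under 0.05. Those were Dot1l (log2FC −0.37 ± 0.12), Kdm4c (0.30 ± 0.09) and Suv39h2 (−0.26 ± 0.10). MEF KO replicate 3 had the KO group's extreme value in all 3, at 923, 981 and 258 normalised counts. Without it the log2FC was −0.18 for Dot1l, 0.16 for Kdm4c and −0.16 for Suv39h2. Without MEF KO replicate 1 Dot1l was called (−0.51, FDR = 0.00799), and without MEF KO replicate 2 Kdm4c was (0.39, FDR = 0.0261). At D3 none was called by either tool in the fit of all libraries, beside 0.493% of all tested genes, and Kdm3a alone had an unadjusted p under 0.05. WT and KO libraries did not overlap for 3 of the 10 genes at D3. How many of all genes did so was not counted at any stage, so such counts set no gene apart. Kdm3a, 1 of the 3, had 583, 656 and 729.8 normalised counts in WT and 828, 825 and 853 in KO (log2FC 0.35 ± 0.11, FDR = 0.180). A fit of the 6 D3 libraries alone called it with the replicate number as a block (0.36, FDR = 0.0158), where 1.66% of tested genes were called higher (556 genes in either direction, against 79 in the fit of all libraries). The same 6 libraries without the block called it as well (FDR = 0.0210), beside 1.09% higher.

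At D5, 2 of the 10 genes were higher in KO and none lower, beside 4.72% of tested genes higher and 2.43% lower. They were the paired H3K9 mono- and dimethyl erasers. Kdm3a had 954, 989.8 and 1074 normalised counts in WT and 1574, 1768 and 1696 in KO (log2FC 0.74 ± 0.11, FDR = 3.70e-09). Kdm3b had 1895, 1725 and 1955 in WT and 2304, 2859.9 and 2553 in KO (0.47 ± 0.08, FDR = 1.33e-06). WT and KO libraries did not overlap for either gene. That held for 5 of the 10 genes at D5, with the share over all genes not counted, so it does not set these 2 apart. A fit of the 6 D5 libraries with the replicate block called Dot1l too (0.19, FDR = 0.0336), beside 8.7% of tested genes higher. The same fit without the block called both Dot1l (FDR = 0.0370) and Ehmt1 (FDR = 0.0456), beside 8.6%.

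At D7, 4 of the 10 genes were higher in KO and none lower, beside 13.3% of tested genes higher and 16.1% lower. Of the 4, 3 were H3K9 erasers and the fourth was a writer. Kdm3a had 1807, 2021 and 1756 normalised counts in WT and 4031.5, 4101 and 3528.5 in KO, a 2.09-fold higher level (log2FC 1.06 ± 0.11, FDR = 4.39e-21), and was the single DEG. Kdm3b had 3010.4, 3265 and 3175 in WT and 5598, 5994 and 5562 in KO (0.86 ± 0.08, FDR = 9.63e-25), where WT iPSCs had 4663 to 5857. No WT library of either gene reached the lowest KO library. WT and KO libraries did not overlap for 6 of the 10 genes at D7, with the share over all genes not counted. Kdm4c had 1627, 1741 and 1503 in WT and 2290.4, 2268 and 2101 in KO (0.45 ± 0.09, FDR = 2.29e-06). Suv39h2 had 520.3, 533 and 499 in WT and 646, 677.5 and 695 in KO (0.38 ± 0.08, FDR = 1.65e-05). The median log2FC of the 10 was 0.28, and that of all genes −0.04. By contrast Suv39h1, at 1422 to 1614 in KO and 1548 to 1730.4 in WT, was not called (−0.12, with a 95% interval from −0.40 to 0.16).

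The count at D7 depended on which libraries were fitted. In a fit of the 6 D7 libraries with the replicate number as a block, 8 of the 10 were called higher, beside 17.5% of tested genes, adding Kdm2b (0.36, FDR = 6.60e-05), Kdm4b (0.28, FDR = 0.00824), Dot1l (0.17, FDR = 0.0253) and Ehmt1 (0.17, FDR = 0.0289). The same 6 libraries without the block gave 7, beside 17%. Ehmt1 was also called with edgeR, with TMM scaling and without D7 WT replicate 1 (0.17, FDR = 0.0250). Other genes moved beside these at D7. The sum of 8 pluripotency markers was 7450 to 10742 normalised counts in WT and 23552 to 29012 in KO, with 8 of 8 called higher. The fibroblast sum was 21273 to 32846 in WT and 6673 to 20601 in KO, with 3 of 8 lower, and that of 10 proliferation genes 50339 to 54914 and 71299 to 77580, with 7 of 10 higher. The sum of 6 blood and endothelial markers was 1173 to 1355 in WT and 3080.4 to 3291 in KO, with 1 of 6 higher, Tie1, and 1 of 6 without a count in the WT libraries. The epithelial sum was 58579.8 to 63363 in WT and 58141 to 60466 in KO, with 1 of 6 higher. At D5 the pluripotency sum was 1607 to 1901 in WT and 3406 to 5145 in KO, and the proliferation sum 35973 to 43672 and 50087 to 51994. The part of these differences in the values of the 10 genes was not tested.

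**Figure D3:**
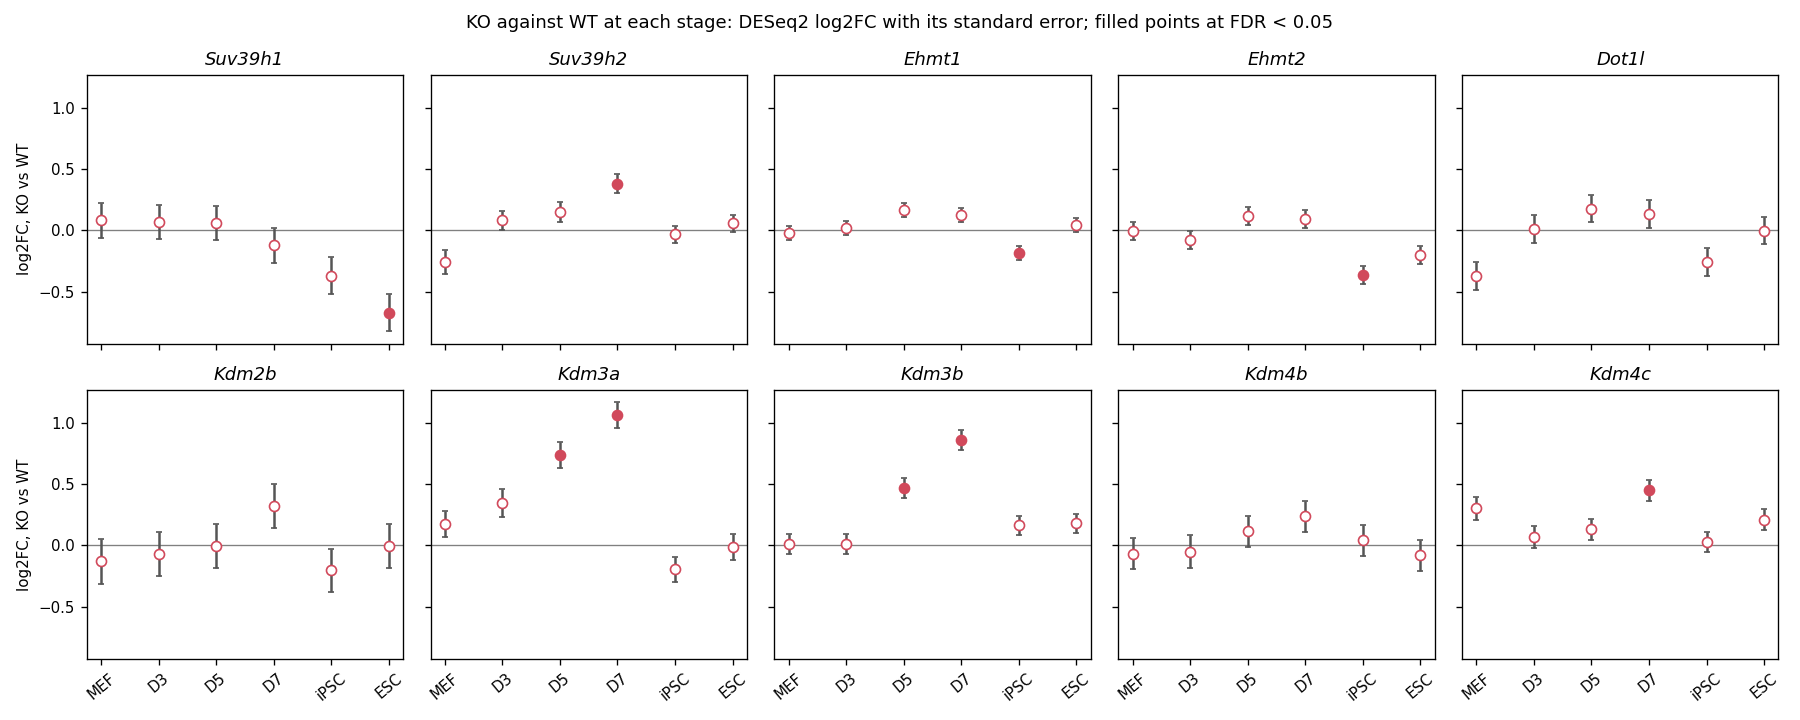
The log2FC of KO against WT for each of the 10 genes at the 6 stages, with bars for 1 standard error of the DESeq2 fit and filled points at FDR < 0.05. Kdm3a and Kdm3b are filled at D5 and D7, Kdm4c and Suv39h2 at D7, Ehmt1 and Ehmt2 in iPSCs below 0, and Suv39h1 in ESCs below 0.

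In the pluripotent cells the KO calls fell on writers and were all downwards. In iPSC clones Ehmt2 had 6332, 5894 and 6484 normalised counts in WT and 5210.2, 4390 and 4961 in KO (log2FC −0.36 ± 0.07, FDR = 3.61e-05), with no overlap. Ehmt1 had 4094, 4024 and 4422 in WT and 3734, 3468 and 3829.6 in KO (−0.19 ± 0.06, FDR = 0.00918). These were 2 of 10 genes lower and none higher, beside 6.63% of tested genes lower and 9.72% higher. WT and KO libraries did not overlap for 3 of the 10 genes in iPSCs, with the share over all genes not counted. The Ehmt1 call was lost without iPSC WT replicate 3 (FDR = 0.0895), without iPSC KO replicate 2 (FDR = 0.0834) and in a fit of the 6 iPSC libraries alone (FDR = 0.332). Without iPSC WT replicate 1 or without iPSC KO replicate 2 the count rose to 4. Of the marker lists in KO iPSCs, 3 of 5 extraembryonic endoderm markers were higher (sum 56.6 to 120.04 in WT and 77.8 to 540.1 in KO). Of the others, 2 of 6 epithelial and 1 of 8 fibroblast markers were higher, 1 of 6 blood and endothelial markers was higher and 1 lower, and none of 8 pluripotency markers was called. Their part was not tested. In ESCs, Suv39h1 had 491, 466 and 431 normalised counts in WT and 297, 243 and 329 in KO (−0.67 ± 0.15, FDR = 0.000539), with no overlap, where the KO samples were clonal and the WT samples may not have been. It was the 1 gene of 10 called lower, with none higher, beside 4.29% of tested genes lower and 5.82% higher. WT and KO ESC libraries did not overlap for 3 of the 10 genes, with the share over all genes not counted. Besides Suv39h1 these were Kdm4c and Kdm3b, which lay higher in KO without a call, and the lack of overlap sets neither apart. Kdm4c had 4649 to 4952 normalised counts in WT ESCs and 5427 to 5678 in KO ESCs. Kdm3b had 4476 to 5368 in WT and 5585 to 5763 in KO. Ehmt2 lay at the threshold in ESCs (−0.21 ± 0.07, FDR = 0.0504) and passed it without ESC KO replicate 1 (−0.28, FDR = 0.00543). In iPSCs Suv39h1 was −0.37 ± 0.15 (FDR = 0.0726), and passed without iPSC WT replicate 1 (FDR = 0.00724) or iPSC KO replicate 2 (FDR = 0.00709).

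Whether the KO difference itself changed between stages was tested with interaction terms. From D3 to D7 it grew for Kdm3b (by 0.85 ± 0.11 on the log2 scale, FDR = 7.80e-11), Kdm3a (0.71 ± 0.15, FDR = 0.000185) and Kdm4c (0.38 ± 0.12, FDR = 0.0216), beside 13% of tested genes called. For Suv39h2 the term was 0.30 ± 0.11 (FDR = 0.0539). The Kdm4c term was lost in 5 fits that left out 1 library (D3 WT replicate 1, D3 KO replicate 3, D7 WT replicate 3, or D7 KO replicate 1 or 2, with FDR from 0.0511 to 0.0995). From D5 to D7, Kdm3b alone was called (0.39 ± 0.11, FDR = 0.0168), beside 5.84%. That term was lost without D5 WT replicate 3, D5 KO replicate 1, D7 WT replicate 1 or D7 KO replicate 2 (FDR from 0.0648 to 0.0847). DESeq2 and edgeR called none of the 10 for D3 against MEFs (0.112% of tested genes called) or for D5 against D3 (0.064%), with 2 at an unadjusted p under 0.05 in each. The D5 against D3 term of Kdm3b was 0.46 ± 0.12 (FDR = 0.0650) and passed without D5 KO replicate 1 (0.53, FDR = 0.00720). None was called for ESCs against iPSCs (1.47%), with 1 at an unadjusted p under 0.05. The lower Suv39h1 of KO ESCs and the lower Ehmt1 and Ehmt2 of KO iPSCs are therefore not shown to differ between the cell types (Suv39h1 term −0.30 ± 0.21, with a 95% interval from −0.72 to 0.12).

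Genes that work with these enzymes, and other methyltransferases and demethylases, were described by lists. Their counts are read beside the 40% of all tested genes called higher and 39.4% called lower between WT MEFs and WT ESCs. In that comparison 5 of 9 H3K9 methyltransferase partners rose and 4 fell, with a median log2FC of 0.55. That list also holds methyltransferases, such as Setdb1. The largest change was that of Trim28 (2.12 ± 0.06, FDR = 1.93e-243), the corepressor of KRAB zinc finger proteins. Of 7 readers of H3K9 methylation, 6 rose and none fell (median 0.90), led by Cbx1, the gene of HP1 beta (2.41 ± 0.10, FDR = 3.51e-140). Of 11 DOT1L partners and H2B ubiquitin ligases, 2 rose and 6 fell (median −0.17). Aff2 changed most, from a mean of 284 normalised counts in MEFs to 1.21 in ESCs, too low for a fold to be given. Of 9 PRC1.1 partners of KDM2B, 4 rose and 4 fell (median −0.04), with Yaf2 changing most (−3.31 ± 0.14, FDR = 6.93e-120). Of 16 other lysine demethylases, 8 rose and 6 fell (median 0.19), with Phf2 changing most (−3.73 ± 0.15, FDR = 4.71e-131). Of 13 H3K4 and H3K36 methyltransferases, 4 rose and 8 fell (median −0.67), with Ash1l changing most (−2.59 ± 0.10, FDR = 7.18e-142). The median of all genes was 0.05.

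At D7, where 13.3% of all tested genes were higher and 16.1% lower with a median of −0.04, 5 of 7 H3K9 readers were higher in KO and none lower (median log2FC 0.53), and Cbx1 had the lowest FDR (0.82 ± 0.10, FDR = 1.12e-15). Of 9 H3K9 methyltransferase partners 3 were higher and none lower (median 0.14), with the lowest FDR for Trim28 (0.51 ± 0.06, FDR = 8.43e-14). Of 16 other demethylases 7 were higher and 1 lower (median 0.15), with the lowest FDR for Kdm5b, an H3K4 eraser (0.77 ± 0.07, FDR = 8.24e-27). DOT1L partners were split 2 higher and 2 lower (lowest FDR for Mllt10, 0.59 ± 0.13, FDR = 5.64e-05), PRC1.1 partners 3 and 2 (Usp7, 0.66 ± 0.05, FDR = 1.26e-35), and H3K4 and H3K36 methyltransferases 3 and 3 (Nsd1, 0.48 ± 0.10, FDR = 1.92e-05).

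**Figure D4:**
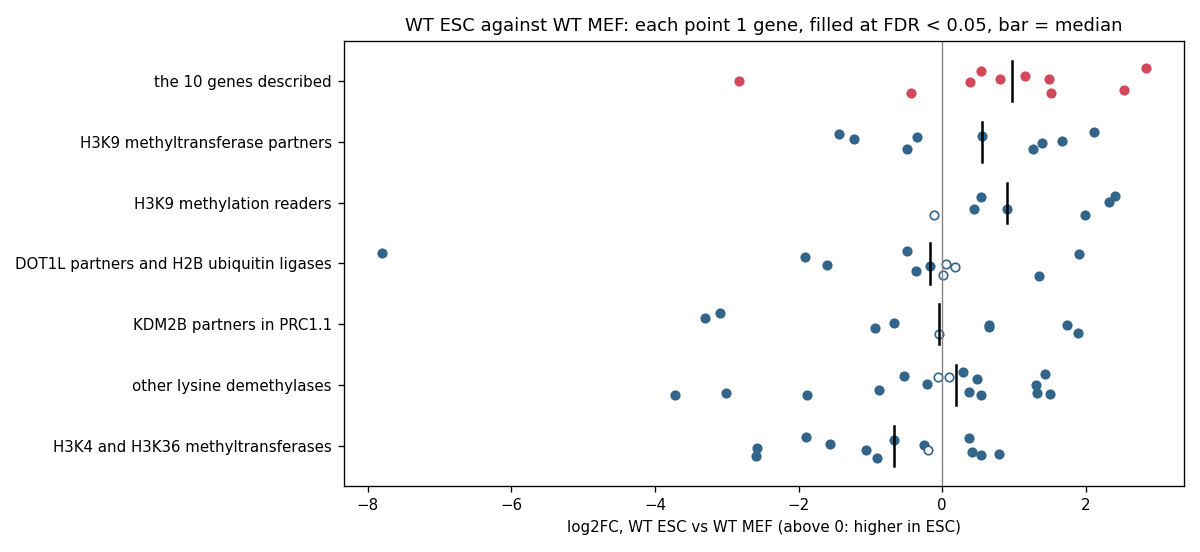
The log2FC of WT ESCs against WT MEFs for the 10 genes and 6 lists of related genes, with each point 1 gene, filled at FDR < 0.05, and a vertical bar at each list's median. The median is 0.98 for the 10 genes, 0.90 for H3K9 readers and −0.67 for H3K4 and H3K36 methyltransferases, and Suv39h1 and Ehmt2 are the 2 of the 10 below 0.

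As a description of shape, the genes most like Suv39h1 and Kdm3a, the writer and the eraser with the widest WT range, were sought among 13284 genes by Pearson's r of log2(normalised count + 1) over the 12 group means. For Suv39h1 they were Cybc1 (r = 0.997), Efna5 (0.995) and Arf1 (0.994), and for Kdm3a Bicral (0.995), Trim6 (0.994) and Dock6 (0.992). Suv39h1 itself correlated with Kdm4c at r = −0.98 and with Suv39h2 at r = −0.94 over the same 12 means. The points share stages and libraries, and no test was made.

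Reads of some of these genes cannot be assigned with certainty. By exon overlap and by runs of 75 bases shared with another gene, 23.2% of such runs of Kdm3b also belonged to another gene, mainly Gm26538, 11.4% of those of Kdm2b mainly to Rnf34, 11.1% of those of Suv39h1 mainly to Gm14820 and 3.19% of those of Suv39h2 mainly to Dclre1c. Each of these neighbours lies on the opposite strand. The kit marks strand, but the strand setting of the counting is not given in the sources used here. No run was shared between 2 of the 10 genes.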

How the data were processed

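RNA-seq libraries were made with a stranded kit from 36 samples. The submitters' processing notes name FastQC, cutadapt, STAR, DESeq2 and GRCm38.p6, and the study's methods add Rsubread for gene counting. Tool versions, annotation release and strand setting are not given in the sources used here. The authors deposited raw counts per gene and normalised counts (a signal value, the raw count divided by a DESeq2 size factor per library), which recomputation matched. Deposited log2 fold changes, p-values of the authors' own comparisons and log values that they corrected for library preparation date were not used.

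Raw counts were tested with DESeq2 1.42.0 (R 4.3.3, Wald test, 1 factor of 12 groups, 36 libraries, Benjamini-Hochberg adjustment over all genes passing independent filtering, FDR < 0.05), after testing on simulated data. The alternatives were edgeR's quasi-likelihood test (4.0.16), TMM scaling, no independent filtering, removal of genes with a mean under 10, only the groups compared, the replicate number as a block and leaving out each library. The block within a stage was added after seeing the data. Python 3.11.15 and pandas 2.3.3 handled annotation. Per kb values divided normalised counts by exon length. Likeness used genes with a mean of at least 100 normalised counts and a pseudocount of 1. From each list the gene with the lowest FDR in KO against WT at D7 and that with the largest change between WT MEFs and WT ESCs were named. The 10 genes, the lists and the tests were chosen with earlier results of these data known.

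Replicate numbers are shared by the groups. Deviations from group means correlated above 0.1 in every same-numbered WT and KO pair at D3, D5 and D7 (r from 0.109 to 0.513), so the blocked value within the stage is given there where it changes a call. At other stages not every pair did. At D3, WT replicate 2 correlated more with a KO library of another number (r = 0.134) than with that of its own (r = 0.117).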

Additional observations from a re-analysis of the deposited data

Results flagged for a closer look

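For 3 genes the difference between KO and WT itself differed between stages by an interaction term in DESeq2 (adjusted over all genes, 3 libraries per group). The KO effect on Kdm3b was larger at D7 than at D3 by 0.85 on the log2 scale (FDR = 7.80e-11) and larger at D7 than at D5 by 0.39 (FDR = 0.0168). For Kdm3a the D7 effect exceeded the D3 effect by 0.71 (FDR = 0.000185), and for Kdm4c by 0.38 (FDR = 0.0216). In each case every D7 KO library lay above every D7 WT library, which restates the D7 part of the term and adds no separate evidence. WT and KO libraries did not overlap for 6 of the 10 genes at D7, with the share over all genes not counted. The D7 groups enter all 4 terms. Groups of 3 are too small for a test of single outlying libraries.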

How the results depend on the processing

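No value that was called in the fit of all libraries changed sign under any alternative. Requiring |log2FC| > 1 as well left, for KO against WT, 0 genes at D5, 1 at D7, 0 in iPSCs and 0 in ESCs. In the WT course it left 3 (MEF to D3), 0 (D3 to D5), 0 (D5 to D7), 5 (D7 to iPSC), 0 (iPSC to ESC) and 6 (MEF to ESC), in the KO course 3, 1, 2, 4 and 6 (MEF to D3, D3 to D5, D5 to D7, D7 to iPSC and MEF to ESC), and 0 for the D7 against D5 and D7 against D3 interaction terms. Fits of only the groups compared called 1 (D3), 4 (D5), 7 (D7), 1 (iPSC) and 2 (ESC) genes for KO against WT, 0 for WT ESC against iPSC, and 1, 4 and 5 for the interaction terms D5 against D3, D7 against D5 and D7 against D3. With the replicate block in the fit of all libraries 2 genes were called in ESC KO against WT and 0 in WT ESC against iPSC. The block in a fit of 1 stage alone, which changes the libraries fitted as well, called 1 at D3, 3 at D5 and 8 at D7. At these stages every same-numbered pair correlated above 0.1. Of 18 same-numbered pairs, 10 correlated above 0.1 and 10 showed their highest correlation with their own number. Removing genes with a mean under 10 gave 2 in ESC KO against WT and 2 in WT ESC against iPSC, and the latter had 0 without independent filtering, 0 with edgeR and 2 with TMM scaling. Other counts stayed within 1.5 times. Leaving out 1 library gave 0 to 1 calls for KO against WT in MEFs, 1 to 4 in iPSCs and 1 to 2 in ESCs, 0 to 3 for WT and 0 to 2 for KO ESC against iPSC, and 0 to 1 for the D5 against D3 and the D7 against D5 terms. The cause of these shifts was not tested. TMM scaling moved the median log2FC of all genes in WT ESC against MEF by 0.11, and all 10 genes kept their sign there.

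Per kb of coding length the WT ESC log2 ratios were −0.91 (Suv39h1 over Suv39h2), −0.56 (Ehmt1 over Ehmt2), 1.24 (Kdm3a over Kdm3b) and −1.71 (Kdm4b over Kdm4c). With 1 library left out, the ESC minus MEF differences ranged from −4.41 to −4.26, 0.96 to 1.02, 1.65 to 1.79 and −2.50 to −2.38 in the same order. With 36 libraries in place of 12 group means the r values of the genes most like Suv39h1 were 0.983, 0.985 and 0.982, and Sdc1 (0.987) stood above them. With 3 libraries per group the spread rests on the estimate shared by all groups.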
